A study of Bos taurus with 28 samples.

Results

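IL1A (ENSBTAG00000010349) and the genes of 4 interleukin receptor chains, IL1R1 (ENSBTAG00000005273), IL18R1 (ENSBTAG00000001034), IL13RA1 (ENSBTAG00000019338) and IL2RG (ENSBTAG00000007626), were followed in the bovine uterus with and without insemination. They are 5 of the 24596 gene IDs counted. IL1A was taken by its ID from the study's lists of genes that differ between treatments, and the receptors by name in the study's table for LF and CTRL heifers. That table is ordered by p-value, and of its rows only the top ones, 1685 in number, were used here. A receptor gene with a name therefore tends to have a lower p-value for LF against CTRL than a gene with no name, and other interleukin genes without a name were not analysed here.

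The samples were uterine biopsies of 28 heifers, 1 from each animal, and their mRNA was sequenced. The HF group (n = 10) was inseminated with frozen-thawed semen of high-fertility bulls, the LF group (n = 10) with frozen-thawed semen of low-fertility bulls, and the CTRL group (n = 8) was not inseminated. Semen of 5 bulls was used in each of HF and LF, and every bull served 2 heifers, 1 in each of the study's 2 replicates. Estrus was synchronized in all heifers, CTRL included, with an intravaginal progesterone device, gonadotrophin-releasing hormone and prostaglandin F2 alpha, so no group represents an untreated cycle. The animals were nulliparous and their uteri were sampled after slaughter, 12 h after insemination, in the intercaruncular part of the horn beside the ovary that had ovulated, with the endometrium cut away from the muscle. The sample labels give Holstein-Freisan as the breed, whereas the study describes its heifers as cross-bred and its animal table lists 6 beef breeds, with Limousin and Charolais in every group. CTRL heifers had no insemination of any kind, so sperm, the fluid they came in and the procedure itself cannot be told apart in the comparisons with CTRL.

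Interleukin 1 alpha is an alarm cytokine that epithelial and other cells hold ready and release on damage or activation. It binds the receptor IL1R1, which then pairs with an accessory chain and signals through MYD88, kinases of the IRAK family and TRAF6 to NF-kappa B. IL18R1 is the ligand-binding chain for interleukin 18 and belongs to the same receptor family, with expression known mostly from T cells and natural killer cells. IL13RA1 joins the interleukin 4 receptor alpha chain to form a receptor for interleukins 4 and 13 on epithelial, stromal and muscle cells. IL2RG is the common gamma chain, shared by the receptors for interleukins 2, 4, 7, 9, 15 and 21 and found on lymphocytes. In the bovine RefSeq annotation (assembly ARS-UCD2.0, used for neighbours only), IL1R1 and IL18R1 lie in one row of receptor genes on the chromosome that also carries IL1A, in the order IL1R2, IL1R1, IL1RL2, IL1RL1, IL18R1, IL18RAP, whereas IL13RA1 and IL2RG lie apart from each other on X.

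Total counts ranged from 14872812 to 24024538 in HF heifers, from 16039311 to 25633259 in LF heifers and from 15458403 to 22834975 in CTRL heifers, so depth was alike between groups. Over the most variable genes the median correlation of a library with the others was lowest in LF7 (0.584), LF8 (0.587) and HF9 (0.6003) and 0.624 to 0.773 in the rest. Levels below are CPM, read counts scaled to a common library size after normalisation across all heifers, which rank heifers for 1 gene but not genes against each other, because transcript lengths were not used. IL1A was counted thinly, with 25 to 269 reads in HF heifers, 3 to 29 in LF heifers and 8 to 86 in CTRL heifers. The lowest count, 3 in LF5, had an exact 95% Poisson interval of 0.619 to 8.77 reads, which covers counting error only. IL1R1 (49 to 1673 reads), IL13RA1 (143 to 1333) and IL2RG (86 to 192) were counted more deeply, and IL18R1 (5 to 146) was not. In a piece of whole tissue, fewer cells of a type and less RNA per cell cannot be told apart.

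IL1A was the member that set the HF heifers apart. Its level in HF heifers was 1.22 CPM at the lowest (HF7), 3.34 CPM at the median and 15.0 CPM at the highest (HF9). In LF heifers the lowest was 0.163 CPM (LF5), the median 0.728 CPM and the highest 1.596 CPM (LF8). In CTRL heifers the lowest was 0.538 CPM (CTRL7), the median 0.912 CPM and the highest 5.01 CPM (CTRL1), while the next CTRL heifer had 1.17 CPM. HF heifers thus stood above nearly all others, and 1 CTRL heifer lay in the upper part of their range. Across all 28 heifers the level of IL1A spanned 92.2-fold, the widest span of the 5 genes, against 2.29-fold for IL2RG. The low end of the IL1A span is LF5 with 3 reads, so its size is uncertain from counting error alone.

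**Figure D1:**
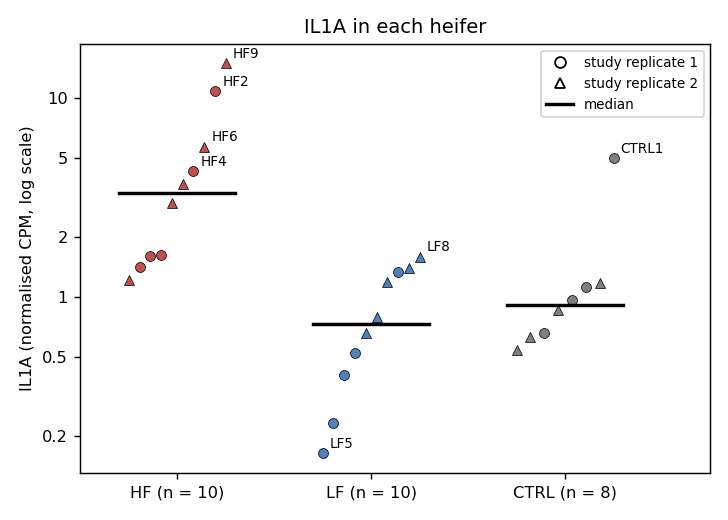
IL1A level in each heifer, in normalised CPM on a log axis, for HF (n = 10), LF (n = 10) and CTRL (n = 8), with circles for study replicate 1, triangles for study replicate 2 and a bar at each median (3.34, 0.728 and 0.912 CPM). HF2 and HF9 are the highest HF heifers at 10.9 and 15.0 CPM, and CTRL1 at 5.01 CPM stands apart from the other CTRL heifers.

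The first question was what semen of HF bulls changed relative to no insemination. IL1A averaged 4.84 ± 4.61 CPM in HF heifers and 1.37 ± 1.49 CPM in CTRL heifers (SD, n = 10 and 8). Every HF heifer exceeded the CTRL median and 7 of 8 CTRL heifers, but only 3 of the 10 HF heifers exceeded CTRL1. At least as many CTRL heifers lay below every HF heifer in 0.228% of the 14885 genes tested, a share that counts this direction only. HF was the higher in 73 of 80 pairs of 1 HF and 1 CTRL heifer. The log2 fold change of IL1A for HF against CTRL was 1.82 (SE 0.57, 95% interval 0.63 to 3.01) in edgeR's quasi-likelihood test, and it did not pass at adjusted p = 0.165 (unadjusted p = 0.00469, place 422 of all genes by p). In DESeq2, the tool the study used, it passed at adjusted p = 0.0364 with a log2 fold change of 1.81. The edgeR test called 0 genes for HF against CTRL, with 2386 genes (16.0%) at an unadjusted p under 0.05, and DESeq2 called 328 genes (2.12%, with 1.05% of all genes tested higher and 1.07% lower in HF). IL1A was the 1 of the 5 genes that DESeq2 called, and 2 of the 5, IL1A and IL1R1, had an unadjusted edgeR p under 0.05.

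The DESeq2 call of IL1A for HF against CTRL rested on several single heifers. It was kept in 9 of 18 fits that left out 1 heifer and was lost without HF2, HF6, HF9, HF10, CTRL3, CTRL4, CTRL5, CTRL6 or CTRL8, with DESeq2 adjusted p between 0.000687 (without CTRL1) and 0.130 (without HF9). The log2 fold change stayed positive in all 18 fits, between 1.42 (without HF9) and 2.498 (without CTRL1). With HF2 and HF9 both left out it was 1.03 at a DESeq2 adjusted p of 0.300, and with the reads of each bull's 2 heifers summed it was 1.78 at 0.0810. Over its 5 alternatives the DESeq2 adjusted p ran from 0.00279, with breed as a covariate, to 0.300. In edgeR the log2 fold change was 1.04 in study replicate 1 and 2.83 in study replicate 2. CTRL1, the heifer with the high value, belongs to study replicate 1. The difference between the replicates was 1.78 in an interaction fit (edgeR unadjusted p = 0.119, adjusted p = 0.99995).

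HF and LF semen were then compared directly. IL1A averaged 4.84 ± 4.61 CPM in HF heifers and 0.831 ± 0.518 CPM in LF heifers (SD, n = 10 each), and 8 of 10 HF heifers lay above every LF heifer. At least as many HF heifers did so in 0.122% of the 14793 genes tested, a share that counts this direction only. HF was the higher in 96 of 100 pairs of 1 HF and 1 LF heifer, and the overlap came from HF7 and HF5 at the low end of HF. IL1A was 5.74-fold higher by edgeR (log2 fold change 2.52, SE 0.51, 95% interval 1.46 to 3.58), the second smallest p-value of all genes tested, yet adjusted p was 0.357 (unadjusted p = 6.47e-05). DESeq2 called it at adjusted p = 0.000980 with a log2 fold change of 2.53. For HF against LF the edgeR test called 0 genes (1171, or 7.92%, at an unadjusted p under 0.05) and DESeq2 called 27 (0.162%, 0.0782% higher in HF), with IL1A the only one of the 5. Since the study had singled out IL1A from these same samples, this result is not independent evidence of its direction.

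This DESeq2 call was kept in all 20 fits that left out 1 heifer, with log2 fold changes from 2.14 (without HF9) to 2.69 (without LF8) and adjusted p from 0.000294 to 0.0116. It was kept in 4 of 5 further DESeq2 alternatives and lost with HF2 and HF9 both left out, where the log2 fold change was 1.75 and the DESeq2 adjusted p 0.0792 (range over the 5 alternatives 5.57e-06 to 0.0792). Within study replicate 1 the edgeR log2 fold change for HF against LF was 2.87 and within study replicate 2 it was 2.31, so the direction was shared. With the reads of each bull's 2 heifers summed, leaving 5 bulls a group, edgeR gave 2.57 at an adjusted p of 0.183.

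LF semen was last set against no insemination. IL1A averaged 0.831 ± 0.518 CPM in LF heifers and 1.37 ± 1.49 CPM in CTRL heifers (SD, n = 10 and 8), and LF was the higher in 34 of 80 pairs of heifers. The edgeR log2 fold change was -0.71 (SE 0.49, 95% interval -1.73 to 0.30, adjusted p = 0.878), and DESeq2 gave an adjusted p of 0.952. Without CTRL1 the edgeR value was -0.030, and it was -1.83 in study replicate 1 against 0.51 in study replicate 2. That contrast between replicates had an unadjusted p of 0.0174 and an adjusted p of 0.99992 in the edgeR interaction fit. LF and CTRL were therefore not separated by IL1A, although the interval leaves room for a difference in either direction. For LF against CTRL the edgeR test called 0 genes (839, or 5.65%, at an unadjusted p under 0.05) and DESeq2 2 (0.0104%). None of the 5 genes was among the DESeq2 calls, and none had an unadjusted edgeR p under 0.05.

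IL1A also differed between the 2 heifers of a bull, by 1.83- to 8.90-fold for HF bulls and by 1.19- to 5.15-fold for LF bulls. The 5.15-fold gap rests on 5 reads in the lower heifer, LF2. Of the HF bulls, bull 7 had the widest gap, with 10.9 CPM in HF2 and 1.22 CPM in HF7. Bull 9 had 4.29 CPM in HF4 and 15.0 CPM in HF9, the highest mean of any bull at 9.64 CPM. The lowest HF mean was 2.30 CPM (bull 8) and the highest LF mean 1.47 CPM (bull 3). The share of all genes whose bull means separate in this way was not computed. In LF the heifer of study replicate 2 had the higher level for each of the 5 bulls, and in HF it did for 4 of 5 bulls, with bull 7 the exception. In CTRL heifers the order was the other way, with means of 0.799 ± 0.283 CPM in study replicate 2 and 1.94 ± 2.05 CPM in study replicate 1 (SD, n = 4 each). The second mean rests on CTRL1, and the other 3 CTRL heifers of study replicate 1 had 0.659, 0.963 and 1.13 CPM.

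**Figure D2:**
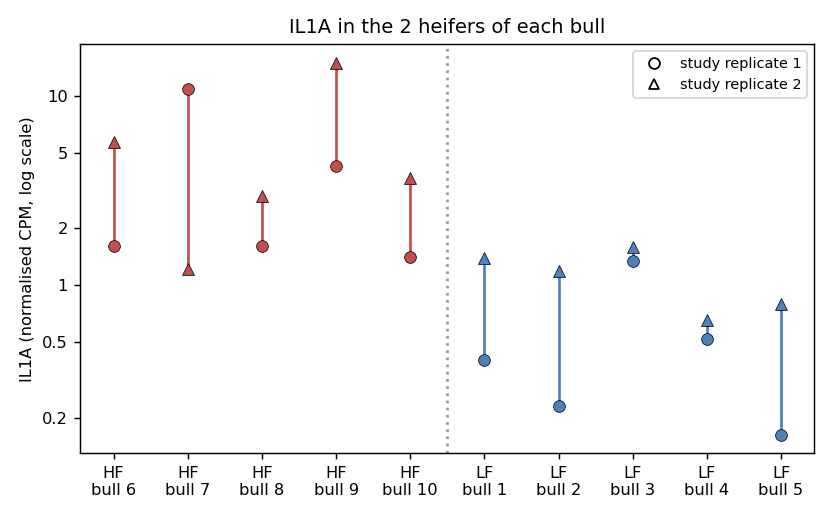
IL1A level, in normalised CPM on a log axis, in the 2 heifers inseminated with each bull's semen, with HF bulls left of the dotted line and LF bulls right of it, and circles and triangles for study replicates 1 and 2. The 2 heifers of bull 7 had 10.9 and 1.22 CPM, while those of bull 3 had 1.34 and 1.596 CPM.

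Limousin heifers were found in every group. Their IL1A levels were 2.98 to 15.0 CPM in HF (n = 4), 0.232 to 0.796 CPM in LF (n = 3) and 0.626 to 1.17 CPM in CTRL (n = 4). HF lay above both other groups there, but the groups are small and the share of all genes so separated was not computed. Charolais heifers had 1.22 to 3.70 CPM in HF (n = 4), 0.163 to 1.40 CPM in LF (n = 5) and 0.538 CPM in the single CTRL heifer, and there HF and LF overlapped. With breed as a covariate the edgeR log2 fold change of IL1A was 2.32 for HF against CTRL (adjusted p = 0.251) and 2.26 for HF against LF (adjusted p = 0.479). Over the 11 edgeR and DESeq2 alternatives the adjusted p ran from 0.0364 to 0.892 for HF against CTRL and from 0.000980 to 0.9997 for HF against LF.

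IL1R1, the receptor that IL1A binds, was lower on average with semen of either kind, without passing the test. Its level was 12.02 CPM at the lowest (HF7), 23.9 CPM at the median and 38.2 CPM at the highest (HF1) in HF heifers. In LF heifers it was 2.78 CPM in LF7, 25.3 CPM at the median and 38.3 CPM in LF10, with 17.0 CPM in the LF heifer next above LF7. In CTRL heifers it was 24.9 CPM at the lowest (CTRL7), 31.2 CPM at the median and 97.4 CPM at the highest (CTRL1), with 42.9 CPM next below. The 3 groups overlapped, and 5 of 10 HF heifers and 4 of 10 LF heifers lay below every CTRL heifer. For the receptors, the share of all genes with such counts of heifers was not computed.

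IL1R1 averaged 24.2 ± 9.42 CPM in HF heifers and 39.5 ± 24.3 CPM in CTRL heifers (SD, n = 10 and 8), a log2 fold change of -0.71 (SE 0.28, 95% interval -1.30 to -0.11) that was not called (edgeR adjusted p = 0.240, DESeq2 adjusted p = 0.155). Leaving out CTRL1 brought it to -0.38 in both edgeR and DESeq2. In LF heifers IL1R1 averaged 25.1 ± 10.6 CPM, and its log2 fold change against CTRL was -0.65 (SE 0.35, 95% interval -1.39 to 0.090, edgeR adjusted p = 0.874), or -0.31 without CTRL1 and -0.17 with LF7 left out as well. HF and LF heifers had nearly the same average, with a log2 fold change of -0.069 for HF against LF (SE 0.31, 95% interval -0.71 to 0.58, edgeR adjusted p = 0.994). Within study replicates 1 and 2 the edgeR log2 fold change of IL1R1 for HF against CTRL was -0.81 and -0.55, and for LF against CTRL it was -0.93 and -0.30.

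Because ligand and receptor were counted in the same library, IL1A reads per 100 IL1R1 reads do not depend on depth or normalisation. The ratio was 4.22 to 81.03 with a median of 12.1 in HF heifers, 0.550 to 42.9 with a median of 2.34 in LF heifers and 2.16 to 5.14 with a median of 2.59 in CTRL heifers. The highest LF value came from LF7, where IL1R1 was low, and the next LF heifer had 7.86. In CTRL1 both genes were high, so its ratio of 5.14 was close to the 3.58 of the next CTRL heifer. The ratio carries no test.

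IL18R1, the interleukin 18 receptor chain, was low and scattered in every group. Its level was 0.505 CPM (HF5) to 6.33 CPM (HF4) with a median of 3.34 CPM in HF heifers, 0.284 CPM (LF7) to 4.06 CPM (LF9) with a median of 2.28 CPM in LF heifers, and 1.06 CPM (CTRL5) to 6.85 CPM (CTRL3) with a median of 3.70 CPM in CTRL heifers. The ranges overlapped throughout, although 8 of 10 LF heifers were below the CTRL median and 8 of 10 HF heifers above the LF median. The log2 fold change of IL18R1 was -0.12 for HF against CTRL (SE 0.39, 95% interval -0.93 to 0.69, edgeR adjusted p = 0.907). It was -0.72 for LF against CTRL (SE 0.40, 95% interval -1.55 to 0.11, edgeR adjusted p = 0.874) and 0.59 for HF against LF (SE 0.39, 95% interval -0.23 to 1.41, edgeR adjusted p = 0.752). With LF7 and CTRL1 left out the value for LF against CTRL was -0.44. The 2 heifers of HF bull 10 differed 11.3-fold in IL18R1 and those of LF bull 2 differed 13.7-fold, with only 10 reads in HF5 and 5 reads in LF7 at the low ends.

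IL13RA1, part of the receptor for interleukins 4 and 13, had 13.7 CPM (HF9) to 50.8 CPM (HF1) with a median of 32.4 CPM in HF heifers. The range was 8.13 CPM (LF7) to 62.6 CPM (LF10) with a median of 29.7 CPM in LF heifers, and 22.3 CPM (CTRL5) to 75.9 CPM (CTRL6) with a median of 38.3 CPM in CTRL heifers. The groups overlapped, and 9 of 10 HF heifers and 7 of 10 LF heifers lay below the CTRL median. IL13RA1 averaged 30.5 ± 10.4 CPM in HF heifers, 30.0 ± 16.1 CPM in LF heifers and 43.8 ± 19.1 CPM in CTRL heifers (SD, n = 10, 10 and 8). Its log2 fold change was -0.52 for HF against CTRL (SE 0.25, 95% interval -1.04 to 0.0059, edgeR adjusted p = 0.317) and -0.54 for LF against CTRL (SE 0.33, 95% interval -1.23 to 0.14, edgeR adjusted p = 0.874). For HF against LF it was 0.015 (SE 0.29, 95% interval -0.59 to 0.62, edgeR adjusted p = 0.998). With LF7 and CTRL1 left out the value for LF against CTRL became -0.36. By DESeq2 the adjusted p of IL13RA1 was 0.256, 0.906 and 0.998 in these comparisons, and no call was made.

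IL2RG, the shared gamma chain, was the steadiest of the 5 genes. Its level was 4.77 CPM (HF2) to 10.9 CPM (HF9) with a median of 7.93 CPM in HF heifers, 5.85 CPM (LF6) to 10.9 CPM (LF7) with a median of 7.84 CPM in LF heifers, and 5.01 CPM (CTRL1) to 10.03 CPM (CTRL5) with a median of 6.68 CPM in CTRL heifers. The ranges overlapped, and 3 of 10 LF heifers lay above every CTRL heifer. LF was the higher in 65 of 80 pairs of heifers, as HF was in 59 of 80 against CTRL. No share of all genes was computed for these counts. The coefficient of variation was 20.3% in HF, 20.5% in LF and 23.2% in CTRL, against 95.2%, 62.3% and 109% for IL1A. The log2 fold change of IL2RG was 0.19 for HF against CTRL (SE 0.16, 95% interval -0.14 to 0.53, edgeR adjusted p = 0.577) and 0.29 for LF against CTRL (SE 0.17, 95% interval -0.052 to 0.64, edgeR adjusted p = 0.874). For HF against LF it was -0.11 (SE 0.15, 95% interval -0.42 to 0.19, edgeR adjusted p = 0.930). IL2RG was the only receptor of the 4 with an estimate above 0 in both comparisons with CTRL.

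**Figure D3:**
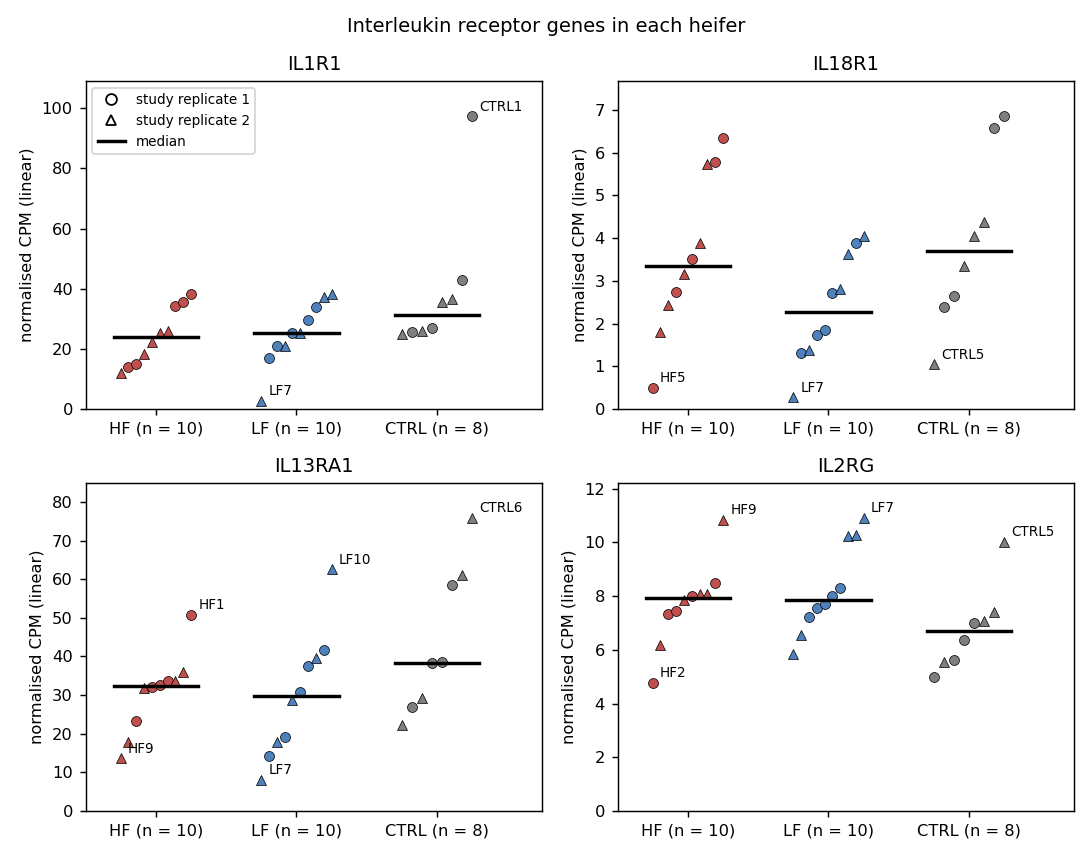
Levels of IL1R1, IL18R1, IL13RA1 and IL2RG in each heifer, in normalised CPM on linear axes from 0, for HF (n = 10), LF (n = 10) and CTRL (n = 8), with circles and triangles for study replicates 1 and 2 and bars at medians. LF7 is the lowest heifer for IL1R1 (2.78 CPM), IL18R1 (0.284 CPM) and IL13RA1 (8.13 CPM) and the highest for IL2RG (10.9 CPM), and CTRL1 is the highest for IL1R1 (97.4 CPM).

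The order of the group means was HF, CTRL, LF for IL1A, CTRL, LF, HF for IL1R1, CTRL, HF, LF for IL18R1 and IL13RA1, and LF, HF, CTRL for IL2RG. By edgeR no neighbours in these orders differed at an adjusted p under 0.05, and by DESeq2 only HF and CTRL did, for IL1A. The median log2 fold change of all genes was -0.024 for HF against CTRL, 0.0099 for LF against CTRL and -0.033 for HF against LF, values that the normalisation itself holds near 0.

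**Figure D4:**
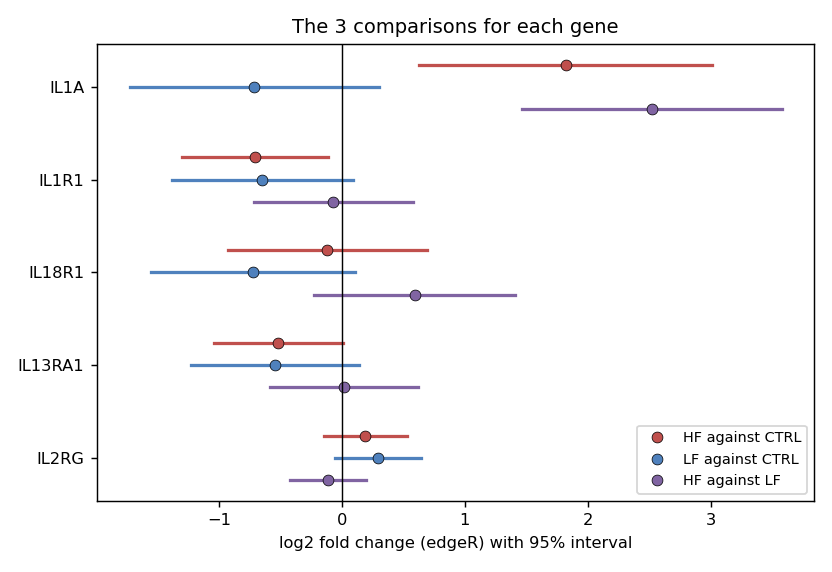
Log2 fold change from edgeR (points) with 95% interval (lines) for each gene in the comparisons of HF against CTRL, LF against CTRL and HF against LF, with 0 marked. IL1A lies at 1.82 and 2.52 in both comparisons with HF on top, and the estimates of the receptors all lie between -0.72 and 0.59. The comparisons share heifers, so their estimates are not independent.

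IL1R1, IL18R1 and IL13RA1 varied together among heifers, and IL1A did not follow them. Over all 28 heifers Pearson's r of log2 CPM was 0.70 for IL1R1 with IL18R1, 0.61 for IL1R1 with IL13RA1 and 0.63 for IL18R1 with IL13RA1, with Spearman's rho of 0.51, 0.38 and 0.60. Without LF7 and CTRL1, the extremes of IL1R1, r was 0.45, 0.31 and 0.44. IL2RG went the other way, with r of -0.42, -0.44 and -0.40 against IL1R1, IL18R1 and IL13RA1, but of -0.057, -0.24 and -0.20 without LF7 and CTRL1. IL1A had r of 0.077 with IL1R1 and between -0.18 and 0.22 with the other receptors. Within CTRL heifers r of IL1A with IL1R1 was 0.97, where CTRL1 had the highest level of both. The values share library, tissue composition and normalisation and are given as a description.

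**Figure D5:**
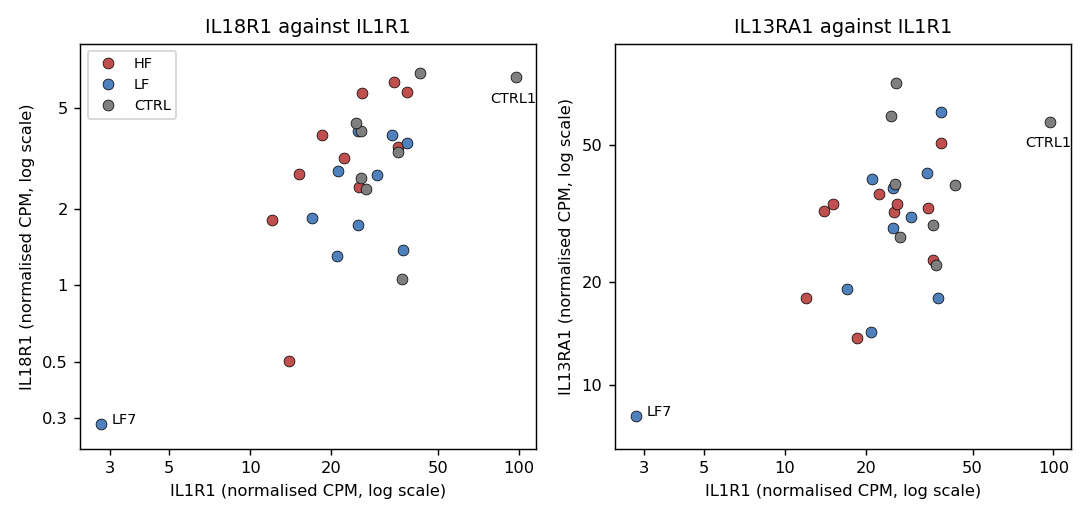
IL18R1 (left) and IL13RA1 (right) against IL1R1, in normalised CPM on log axes, 1 point per heifer, coloured by treatment. LF7 lies at the low end of all 3 genes (2.78, 0.284 and 8.13 CPM) and CTRL1 at the high end of IL1R1 (97.4 CPM), and r over the 28 heifers is 0.70 on the left and 0.61 on the right.

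Among 1462 named genes with a mean of at least 1 CPM, those whose log2 CPM ran most like IL1A over 28 heifers were FSD1 (r = 0.74), AMPH (0.69), which encodes the membrane-curving protein amphiphysin, GABRA4 (0.69), a subunit of the GABA A receptor, RASSF8 (0.68) and ARID5A (0.67), known in mouse as a stabiliser of interleukin 6 mRNA. FSD1, AMPH and GABRA4 carry a name because the study listed them as differing between treatments. Within treatments r was 0.53 for FSD1, 0.44 for AMPH, 0.50 for GABRA4, 0.60 for RASSF8 and 0.78 for ARID5A. The likeness of ARID5A to IL1A was thus held among heifers of one treatment, while that of FSD1, AMPH and GABRA4 was lower there.

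IL1R1 ran most like MAPK6 (r = 0.94), an atypical MAP kinase, API5 (0.94), an inhibitor of apoptosis, and CDC42BPB (0.93), a kinase bound by CDC42. IL18R1 ran most like PBRM1 (0.87), a chromatin remodeller, RASA2 (0.87), a brake on RAS, and WASL (0.87), an actin regulator. For IL13RA1 the genes were ATP2B4 (0.95), a plasma membrane calcium pump, PLCB1 (0.93), a phospholipase C, and SYNJ1 (0.93), a phosphoinositide phosphatase. IL2RG ran most like CD247 (0.74), the zeta chain of the T cell receptor complex, PSTPIP1 (0.71), an adaptor of blood cells, and the class II antigen-presenting gene BoLA DR-ALPHA (0.68). Without LF7 and CTRL1, r of the top gene was 0.87 for MAPK6, 0.79 for PBRM1, 0.93 for ATP2B4 and 0.66 for CD247. Most of the named genes compared came from the top of the study's table for LF and CTRL, so they were not an even choice of all genes.

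Few other genes of these pathways carried a name. None of the 10 other interleukin 1 family ligands and antagonists, the 6 other receptors of that family, the 10 genes of the interleukin 4 and 13 axis or the 13 genes around the common gamma chain did, and their levels were not analysed here. Of 17 signalling genes downstream of IL1R1, 3 were named (IRAK2, TRAF6 and MAP3K7) and 0 of 3 were called by edgeR or DESeq2 in any comparison. IRAK2, a kinase recruited by MYD88, averaged 18.2 ± 6.29 CPM in HF heifers, 13.9 ± 2.57 CPM in LF heifers and 19.6 ± 9.23 CPM in CTRL heifers (SD, n = 10, 10 and 8). Its edgeR adjusted p was 0.615 for HF against LF and 0.874 for LF against CTRL (unadjusted p = 0.0366). MAP3K7, the kinase TAK1 that TRAF6 activates, averaged 56.1 ± 6.43 CPM in HF heifers and 63.0 ± 4.57 CPM in CTRL heifers (edgeR adjusted p = 0.307). In LF heifers it averaged 55.1 ± 7.68 CPM (edgeR adjusted p = 0.874 against CTRL). The median log2 fold change of the 3 genes was -0.10 for HF against CTRL, -0.19 for LF against CTRL and 0.020 for HF against LF.

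Of 6 genes for processing and release of interleukin 1, GSDMD and CAPN1 were named. GSDMD, the pore through which interleukin 1 leaves the cell, averaged 39.1 ± 2.69 CPM in HF heifers and 29.2 ± 5.04 CPM in CTRL heifers (SD, n = 10 and 8), a log2 fold change of 0.42 that DESeq2 called (adjusted p = 0.00388) and edgeR did not (adjusted p = 0.116). In LF heifers GSDMD averaged 40.0 ± 12.3 CPM, with a log2 fold change of 0.46 against CTRL that neither tool called (adjusted p = 0.874 in edgeR and 0.640 in DESeq2), and for HF against LF the log2 fold change was -0.046 (edgeR adjusted p = 0.978). CAPN1 was not called. Of 16 genes known to be induced by interleukin 1, only PTGES, which makes prostaglandin E2, was named. It averaged 13.0 ± 4.81 CPM in HF heifers and 6.05 ± 2.46 CPM in CTRL heifers, with a log2 fold change of 1.10 (DESeq2 adjusted p = 0.00475, edgeR adjusted p = 0.118), and 10.9 ± 6.58 CPM in LF heifers, with 0.86 against CTRL (edgeR adjusted p = 0.874). PTGES is also one of the genes the study drew from these samples.

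Of 20 other interleukin receptor genes, IL20RB and IL22RA1 were named, both receptor chains of epithelial cells for cytokines of the interleukin 10 family. IL20RB averaged 4.98 ± 1.70 CPM in HF heifers, 5.18 ± 1.53 CPM in LF heifers and 3.70 ± 1.69 CPM in CTRL heifers (SD, n = 10, 10 and 8). IL22RA1 averaged 1.22 ± 1.26, 1.38 ± 1.28 and 0.614 ± 0.356 CPM in HF, LF and CTRL heifers. Neither was called by edgeR (adjusted p 0.372 to 0.982 over both genes and the 3 comparisons) or by DESeq2. Both had estimates above 0 against CTRL. Genes with a name tend to have a low p-value for LF against CTRL, so these signs do not speak for the receptors without a name.

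Cell type markers moved beside these genes in some heifers, and their part in the results was not tested. Of 8 smooth muscle markers 2 were named, ACTA2 and MYLK, and their summed level was 412 to 5539 CPM with a median of 870 CPM in HF heifers, 314 to 3908 CPM with a median of 1626 CPM in LF heifers and 610 to 7825 CPM with a median of 4291 CPM in CTRL heifers. The stromal marker VIM (1 of 6 named) had 2120 to 3071 CPM in HF, 1568 to 3173 CPM in LF and 1351 to 2471 CPM in CTRL heifers, and DESeq2 called it for HF against CTRL (log2 fold change 0.39, adjusted p = 0.0316, edgeR adjusted p = 0.158). The 2 named T cell markers of 8, CD247 and CD4, summed to 13.8 to 23.2 CPM in HF, 13.5 to 27.8 CPM in LF and 9.78 to 17.0 CPM in CTRL heifers. The epithelial marker KRT8 (1 of 7 named) had 79.3 to 187 CPM in HF, 113 to 242 CPM in LF and 48.7 to 183 CPM in CTRL heifers. KRT8 averaged 118 ± 33.1 CPM in HF heifers and 167 ± 37.4 CPM in LF heifers, a log2 fold change of -0.52 that was not called (edgeR unadjusted p = 0.00270, adjusted p = 0.450, DESeq2 adjusted p = 0.181). The macrophage markers C1QA, C1QB and C1QC (3 of 8 named) summed to 105 to 257 CPM in HF, 102 to 227 CPM in LF and 91.9 to 197 CPM in CTRL heifers. The cytotoxic marker PRF1 (1 of 7 named) had 1.41 to 3.32 CPM in HF, 1.62 to 4.56 CPM in LF and 1.40 to 3.10 CPM in CTRL heifers, and the leukocyte marker CD53 (1 of 5 named) had 7.65 to 14.4, 8.72 to 22.4 and 9.05 to 13.7 CPM. No marker with a name was at 0 in all heifers, and none of the listed B cell, neutrophil, endothelial or endometrium markers had a name, so the tissue label could be checked only against KRT8 and VIM, which were present in every heifer.

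LF7, lowest in IL1R1, IL18R1 and IL13RA1, had the highest summed T cell markers (27.8 CPM) and the highest VIM (3173 CPM) of all heifers. CTRL1, highest in IL1R1 and in the CTRL group for IL1A, had the lowest T cell markers (9.78 CPM) and the lowest IL2RG of its group (5.01 CPM). HF9, highest in IL1A, had the highest T cell markers of the HF group (23.2 CPM), whereas HF2, the next in IL1A, had the lowest (13.8 CPM). VIM was 3071 CPM in HF2 and 2695 CPM in HF9, ranks 3 and 8 from the top of the 28 heifers. HF5, with only 1.41 CPM of IL1A, had 2869 CPM of VIM (rank 5). Over the 28 heifers Pearson's r of IL1A with VIM on the log2 scale was 0.42 (Spearman's rho 0.48), and r was 0.51 without LF7 and CTRL1. All r with markers pool the treatments, and values within treatments were not computed. With the T cell sum r of IL1A was 0.038, and with the other markers it lay between -0.32 (PRF1) and 0.17 (macrophage sum). Some receptors had larger values. For IL13RA1 with VIM r was -0.69, or -0.65 without LF7 and CTRL1. With the T cell sum r was -0.66 for IL1R1 and 0.74 for IL2RG, or -0.28 and 0.63 without LF7 and CTRL1.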

How the data were processed

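RNA of 28 uterine biopsies was sequenced from stranded mRNA libraries. The authors trimmed and aligned the reads to the bovine genome ARS-UCD1.2 and deposited whole-number read counts per Ensembl gene ID, with no normalisation. STAR 2.6.1b and Subread 1.6.3 are the tools in the submitters' processing notes. The strand setting used in counting is not given in the sources here. Of 24596 IDs, 19458 had a count. Treatment came from the sample labels, and bull, study replicate and breed from the study's animal table. Gene names were found for 1522 IDs, from the study's gene tables and 1685 rows of its LF and CTRL table. Replicates were separate animals. In HF and LF each bull's semen went to 2 heifers, so a contrast of bull fertility rests on 5 bulls a group. The main fits treated all heifers as independent.

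Each pair of treatments was fitted over all genes, on its own heifers and without covariates, with edgeR 4.0.16 in R 4.3.3 (TMM, filterByExpr with a minimum count of 10, glmQLFit and glmQLFTest). P-values were adjusted over all genes tested (Benjamini-Hochberg, threshold 0.05), with DESeq2 1.42.0 beside it. The study's removal of non-coding genes was not repeated. SE was taken as the log2 fold change over the root of F. Levels are CPM with TMM factors over all 28 heifers, and correlations used log2 CPM with a prior count of 2. Both tools were tested on simulated data.

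The members and gene lists were chosen with earlier results of these data known. Genes named beside the members were, per list, those past an adjusted p of 0.05 in either tool and otherwise the 2 with the smallest p, and for likeness the 3 (IL1A: 5) with the highest r. Alternatives were normalisation, no filter, a replicate block, study replicate or breed as covariate, 1 fit of all heifers, bulls summed and each heifer left out. The fits within a study replicate, without LF7 and CTRL1, without HF2 and HF9, the interaction with study replicate and the DESeq2 alternatives were chosen after seeing the data.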

Additional observations from a re-analysis of the deposited data

Results flagged for a closer look

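CTRL1 stood apart from its group in 2 of the 5 genes. Its IL1A level was 5.01 CPM, with the nearest other CTRL heifer at 1.17 CPM, and the gap made up 0.858 of the range of the group. Its IL1R1 level was 97.4 CPM, with the nearest at 42.9 CPM and a gap of 0.751 of the range. Both gaps pass Dixon's 95% limit for a group of 8 samples. Of 15 groups examined (5 genes in 3 treatments), chance passes about 1 in 20 where values follow a normal distribution, which was not checked for CPM. Both flags come from CTRL1, so they are not independent.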

How the results depend on the processing

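Each comparison holds 8 to 10 heifers a group, and IL1A rests on as few as 3 reads in a library. The call of IL1A depended on the tool. Where edgeR called 0 genes, DESeq2 called 328 for HF against CTRL, 2 for LF against CTRL and 27 for HF against LF, and it called IL1A at log2 fold changes of 1.81 and 2.53 in the comparisons with HF. The cause was not tested. None of the receptors was called in any fit, and all estimates that changed sign had been small or were those of IL1A between LF and CTRL. These were, by edgeR, IL18R1 for HF against CTRL (0.084 in study replicate 2), IL1A for LF against CTRL (0.51 in study replicate 2), IL1R1 for HF against LF (0.11 in study replicate 1) and IL13RA1 for HF against LF (-0.25 in study replicate 2).

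The replicate numbers in the labels were not taken to pair heifers of different groups. A number stands for different bulls in HF and LF, and CTRL5 is of study replicate 2 where HF5 and LF5 are of study replicate 1. Deviations of same-numbered heifers correlated above 0.1 in 5 of 8 HF-CTRL pairs, 4 of 8 LF-CTRL pairs and 5 of 10 HF-LF pairs. Such a cut cannot show whether the numbers pair heifers. With the replicate block edgeR again called 0 genes in each comparison. The block keeps only numbers found in both groups, so the fits against CTRL left out HF9 and HF10 or LF9 and LF10. IL1A had log2 fold changes of 1.47 (HF against CTRL), -0.53 (LF against CTRL) and 2.24 (HF against LF). Without a block, leaving out HF9 alone gave 1.44 for HF against CTRL. With the block, IL1R1 for HF against LF turned to 0.033.

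The count of DESeq2 calls for HF against CTRL was 98 with breed as a covariate, 76 with bulls summed and 96 without HF2 and HF9. For LF against CTRL it was 4 with outlying counts kept, 5 with breed, 0 with bulls summed and 6 without LF7 and CTRL1, and for HF against LF it was 226 with bulls summed and 5 without HF2 and HF9. The DESeq2 log2 fold change of IL1A for HF against CTRL lost its call with bulls summed (1.78) and without HF2 and HF9 (1.03), and for HF against LF without HF2 and HF9 (1.75).

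With 1 heifer left out at a time, edgeR called 0 to 91 genes for HF against CTRL, and DESeq2 called 91 to 869 for HF against CTRL, 0 to 16 for LF against CTRL and 7 to 155 for HF against LF. In these fits the log2 fold change of IL1A for HF against CTRL by DESeq2 was 1.42 to 2.498. That of IL18R1 for HF against CTRL was -0.26 to 0.045 by edgeR and -0.27 to 0.035 by DESeq2, that of IL1R1 for HF against LF -0.20 to 0.022 and -0.21 to 0.016, and that of IL13RA1 for HF against LF -0.10 to 0.20 by either tool.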
